A study of Mus musculus with 12 samples.

Results

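The genes described are 7 integrin subunits of leukocytes, Itgb2, Itgal, Itgam, Itgax, Itga4, Itgb7 and Itgae, and 3 adhesion molecules of endothelium that bind them, Madcam1, Icam1 and Vcam1. They were chosen by name as the rows of the deposited count table with these symbols, 10 of 18514 genes, and the rule uses no measured value. The symbols, like the other gene lists below, were nevertheless chosen with earlier results of these data known. Counts of listed genes beside the share of all genes are therefore a description. All 10 passed the filter on low counts, which kept 15484 genes, and their counts ran from 58 (Madcam1) to 1034 (Itga4) per library. RNA was sequenced from colorectal tissue of male C57BL/6 mice, 4 weeks old at purchase, to compare colitis-associated cancer with and without swimming. Ctrl mice drank plain water and were not trained. Ctrl_Swim mice drank plain water and swam daily, building up to 90 min per day. Model mice were injected once with azoxymethane, AOM, a compound that causes colon tumours, at 10 mg/kg. Their water then held 2% dextran sodium sulfate, DSS, which injures the colonic epithelium, for 3 periods of 7 days. Model_Swim mice received the same AOM and DSS and swam as well, with training that began ahead of the injection and went on to the end. Untrained mice were placed in shallow water. There were 3 libraries in each group, and the labels number them but do not say that each came from its own mouse, so p-values measure the spread between these libraries.

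Integrins are pairs of an alpha and a beta chain that let a leukocyte stop on the vessel wall, cross it and stay in the tissue. The beta2 chain (Itgb2) pairs with Itgal to form LFA-1, which binds Icam1, with Itgam to form Mac-1 of myeloid cells, and with Itgax to form CD11c/CD18 of dendritic cells and macrophages. In the gut, Itga4 and Itgb7 form the homing receptor for Madcam1 on mucosal venules, Itga4 with the beta1 chain binds Vcam1, and Itgae with Itgb7 holds lymphocytes to E-cadherin of the epithelium.

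By RefSeq on GRCm38.p6, Itgal (chr7:127296139-127335137), Itgam (chr7:128062640-128118491) and Itgax (chr7:128129526-128150657) lie on the plus strand of 1 chromosome, with 11034 bases between Itgam and Itgax. Itgb2 (chr10:77530329-77565708) and Madcam1 (chr10:79664559-79668542) share chromosome 10. Itga4 (chr2:79255426-79333114), Itgae (chr11:73090505-73147449) and Icam1 (chr9:21015940-21028814) are on the plus strand, and Itgb7 (chr15:102215994-102233405) and Vcam1 (chr3:116110020-116129688) on the minus strand. The annotated span of Cerkl overlaps Itga4 and that of Haspin lies in Itgae. The library kit keeps strand, but whether the counting used it is not given in the sources used here.

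RefSeq promoter windows were found for 6 of the 10 genes, Itgam, Itgax, Itga4, Itgb7, Madcam1 and Icam1, and not for Itgb2, Itgal, Itgae and Vcam1. The 250 bases upstream of the annotated start are shown for 2 endothelial ligands and 2 myeloid integrin chains whose transcripts were higher after AOM/DSS, and each was searched on both strands for letters known from inflammatory or myeloid genes. Capitals mark the matches, and each line runs 5′ to 3′ on the gene's strand, which is plus for all 4 genes. The start used for Itgax lies inside the span of the gene given above.
Madcam1, chr10:79664309-79664558, NF-kB motif in capitals: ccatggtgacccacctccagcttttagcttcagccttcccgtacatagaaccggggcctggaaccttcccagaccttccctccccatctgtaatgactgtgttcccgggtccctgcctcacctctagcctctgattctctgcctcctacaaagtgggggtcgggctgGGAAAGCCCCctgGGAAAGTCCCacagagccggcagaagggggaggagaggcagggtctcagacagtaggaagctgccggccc
Icam1, chr9:21015690-21015939, NF-kB motif with any first base in capitals: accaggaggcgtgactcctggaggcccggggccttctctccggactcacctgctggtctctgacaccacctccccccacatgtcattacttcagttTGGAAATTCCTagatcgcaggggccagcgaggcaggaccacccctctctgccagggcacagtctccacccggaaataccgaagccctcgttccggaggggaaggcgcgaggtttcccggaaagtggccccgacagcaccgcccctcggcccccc
Itgam, chr7:128062390-128062639, GAGGAA or its reverse complement in capitals: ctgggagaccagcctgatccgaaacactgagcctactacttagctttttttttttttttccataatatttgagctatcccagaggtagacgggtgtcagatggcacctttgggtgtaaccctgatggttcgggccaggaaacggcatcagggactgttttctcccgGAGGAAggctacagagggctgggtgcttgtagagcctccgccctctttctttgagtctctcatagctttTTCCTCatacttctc
Itgax, chr7:128129300-128129549, TGANTCA in capitals: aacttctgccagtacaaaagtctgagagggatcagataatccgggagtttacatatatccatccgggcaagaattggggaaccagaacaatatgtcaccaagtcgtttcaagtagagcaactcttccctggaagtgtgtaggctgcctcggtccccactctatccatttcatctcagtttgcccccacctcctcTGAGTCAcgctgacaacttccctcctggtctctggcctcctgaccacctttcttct
The Madcam1 window held 2 matches to the NF-kB motif, both on the strand opposite to the gene, at bases 83 to 74 and 70 to 61 before the start, and 7.25% of 32851 RefSeq windows of this length held at least 1. None of the other 5 windows held it. With any base allowed at its first position, which takes in the NF-kB matches themselves, the motif was also in Icam1, as 2 overlapping matches on opposite strands at bases 154 to 145 and 153 to 144, and once in Itga4, against 22.9% of windows. GAGGAA, the core bound by the myeloid factor PU.1, occurred at 2 places in Itgam, against 23.3% of windows with at least 1, and TGANTCA, the AP-1 motif, occurred once in Itgax, against 6.75%. Neither was found in the other windows. A match describes the letters and not binding.

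Library totals lay between 17257000 and 19451100 counts, so that 3 counts are about 0.165 CPM in a library such as Ctrl 1, a limit that covers counting error only. CPM values are counts scaled to a common library size, here by TMM, which aligns the bulk of genes between libraries. Every library held colon epithelium, with 8 of its genes summing to 11738 to 28335 CPM. Several libraries stood apart in their make-up. Model 1 and Model 3 held pancreatic acinar transcripts (40505 and 19519 CPM summed over 9 genes, against 10.2 to 91.4 elsewhere). A list of 7 squamous epithelial genes, a tissue that colon mucosa lacks, summed to 430 and 1220 CPM in Model 1 and Model 2, 92.0 to 823 in Model_Swim and 301 in Ctrl_Swim 4, against 2.50 to 40.8 in the others. Ctrl_Swim 4 also held more leukocyte transcripts than the other untreated mice: Ptprc, Coro1a, Laptm5 and Cd53, a pan-leukocyte list, summed to 255 CPM there, against 116 to 149. Where a call was lost without Model 1 and Model 3, or without Model 1 and Model 2, this is stated with the results of the gene. Each of these fits leaves 1 Model library. In a call lost there, the make-up of the libraries and the loss of replicates cannot be told apart.

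After AOM/DSS in untrained mice, transcripts of the beta2 family, of Itga4 and of all 3 ligands were more abundant, by 1.84 to 2.71-fold, while Itgae differed by 1.19-fold and did not pass the test. In Model against Ctrl 6 of the 10 genes (Itgb2, Itgal, Itga4, Madcam1, Icam1 and Vcam1) had an adjusted p under 0.05 and a fold over 2, all of them higher, by edgeR's quasi-likelihood test with Benjamini-Hochberg adjustment. Of all genes tested, 6.21% met this rule in the higher direction. By the adjusted p alone 8 of 10 passed, with Itgam and Itgax added, against 16.5% of all genes, and in 9 of 10 all Model libraries were above all Ctrl libraries, against 21.0%. The median log2 fold change was 1.10 over the 10 genes and 0.01 over all genes. In bulk tissue, more cells of a type and more RNA per cell cannot be told apart.

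**Figure D1:**
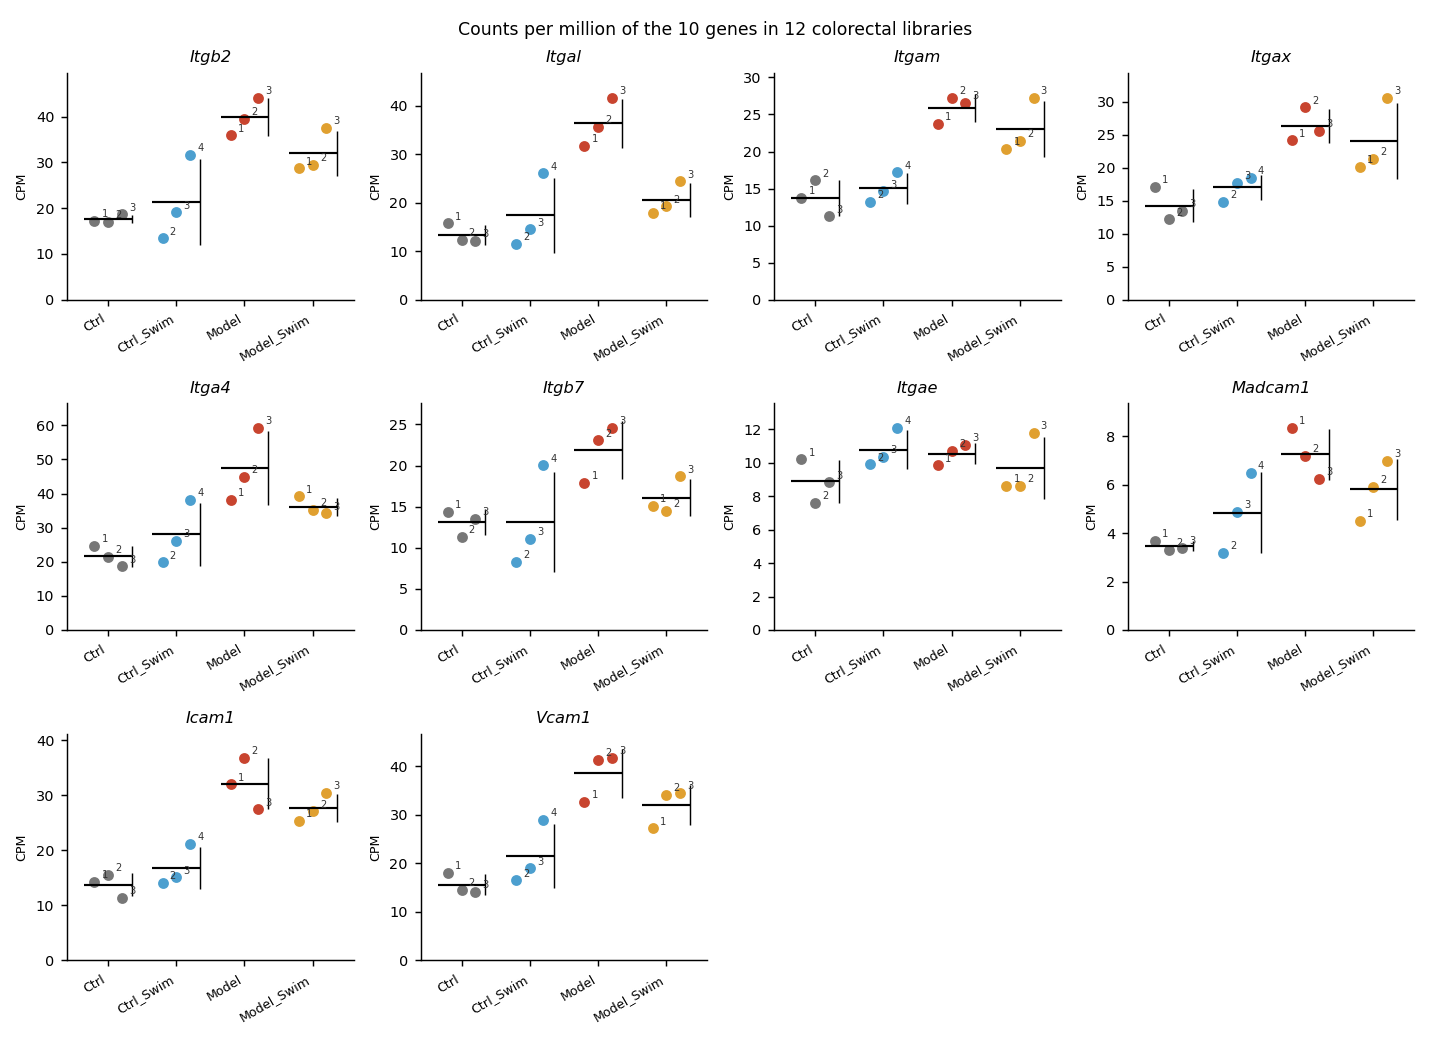
TMM-scaled CPM of each of the 10 genes in the 12 libraries, by group on the horizontal axis; points are libraries with their number, horizontal lines are means and vertical lines are ± 1 SD (n = 3). Model lies above Ctrl without overlap in 9 panels, Itgae being the exception, and Ctrl_Swim 4 is the highest untreated library in every panel.

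Itgb2, the chain shared by all beta2 integrins, stood at 17.3, 17.0 and 18.6 CPM in Ctrl 1 to 3, at 13.4, 19.1 and 31.7 in Ctrl_Swim 2 to 4, at 36.0, 39.5 and 44.2 in Model 1 to 3 and at 28.7, 29.5 and 37.6 in Model_Swim 1 to 3. Every Model library was above every Ctrl library, and Ctrl_Swim 4 was above Model_Swim 1 and 2. The log2 fold change of Model against Ctrl was 1.18 ± 0.24 (SE), with an adjusted p of 0.00523.

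Itgal, the alpha chain of LFA-1, measured 15.7, 12.3 and 12.1 CPM in Ctrl, 11.5, 14.5 and 26.1 in Ctrl_Swim, 31.7, 35.6 and 41.6 in Model and 17.9, 19.2 and 24.4 in Model_Swim. It was the member with the largest fold in Model against Ctrl, and the only one whose Model and Model_Swim libraries did not overlap. The log2 fold change in Model against Ctrl was 1.44 ± 0.26 (adjusted p = 0.00284).

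Itgam, the alpha chain of Mac-1, measured 13.7, 16.1 and 11.3 CPM in Ctrl, 13.2, 14.6 and 17.2 in Ctrl_Swim, 23.7, 27.2 and 26.6 in Model and 20.4, 21.4 and 27.3 in Model_Swim. All 6 AOM/DSS libraries were above all 6 untreated ones. Its log2 fold change in Model against Ctrl was 0.91 ± 0.16 (adjusted p = 0.00216), a fold of 1.88. Itgax, the alpha chain of CD11c, measured 17.1, 12.2 and 13.5 CPM in Ctrl, 14.8, 17.8 and 18.5 in Ctrl_Swim, 24.2, 29.2 and 25.6 in Model and 20.1, 21.4 and 30.7 in Model_Swim. It too separated the 6 AOM/DSS libraries from the 6 others, with a log2 fold change in Model against Ctrl of 0.88 ± 0.18 (adjusted p = 0.00443).

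Itga4, the alpha4 chain, measured 24.7, 21.5 and 18.7 CPM in Ctrl, 19.8, 26.2 and 38.2 in Ctrl_Swim, 38.1, 44.9 and 59.3 in Model and 39.2, 35.2 and 34.2 in Model_Swim. Model 3 was the highest library, and Ctrl_Swim 4 lay within the Model_Swim range. The log2 fold change in Model against Ctrl was 1.13 ± 0.22 (adjusted p = 0.00395), and 0.95 without Model 3, a fold under 2.

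Its partner Itgb7 measured 14.4, 11.3 and 13.5 CPM in Ctrl, 8.27, 11.1 and 20.0 in Ctrl_Swim, 17.9, 23.1 and 24.6 in Model and 15.1, 14.5 and 18.7 in Model_Swim. Model was above Ctrl without overlap, by 0.74 ± 0.27 on the log2 scale, and the adjusted p of 0.0544 did not pass. With 1 library left out that p ranged from 0.00807 to 0.155, and it passed without Ctrl_Swim 2, Ctrl_Swim 4 or Model 1. It also passed by DESeq2 (adjusted p = 0.0216), with only Ctrl and Model in the fit (0.0186) and with a replicate block (0.00966). The block fits Ctrl_Swim 4, the only library of that number, by itself, so it overlaps with leaving that library out. Limma passed Itgb7 on log2(FPKM + 1) (0.0414, though not with its filter on low values left off) and log2(FPKM + 0.1) (0.0452). The call for Itgb7 thus depended on the method. Itgae, the alphaE chain of intraepithelial lymphocytes, measured 10.2, 7.63 and 8.85 CPM in Ctrl, 9.91, 10.4 and 12.1 in Ctrl_Swim, 9.86, 10.7 and 11.1 in Model and 8.64, 8.64 and 11.8 in Model_Swim. All 4 groups overlapped, apart from Model_Swim 3 and Ctrl_Swim 4 no library left the range of 7.63 to 11.1 CPM, and the log2 fold change in Model against Ctrl was 0.25 with a 95% interval of -0.10 to 0.60 (adjusted p = 0.252).

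Madcam1, the venular ligand of alpha4beta7, was the least counted of the 10 genes, at 3.70, 3.32 and 3.41 CPM in Ctrl, 3.18, 4.89 and 6.49 in Ctrl_Swim, 8.36, 7.19 and 6.25 in Model and 4.51, 5.92 and 6.99 in Model_Swim. The Model libraries were above the Ctrl libraries, while the 2 swimming groups overlapped. Its log2 fold change in Model against Ctrl was 1.06 ± 0.26 (adjusted p = 0.0101), 0.96 without Model 1, and 0.85 without Model 1 and Model 2, where it did not pass (adjusted p = 0.117).

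Icam1, the ligand of LFA-1 and Mac-1, measured 14.3, 15.5 and 11.4 CPM in Ctrl, 14.1, 15.0 and 21.2 in Ctrl_Swim, 32.0, 36.8 and 27.4 in Model and 25.4, 27.1 and 30.4 in Model_Swim. The lowest of the 6 AOM/DSS libraries, at 25.4, was above the highest untreated one, at 21.2. The log2 fold change in Model against Ctrl was 1.22 ± 0.17 (adjusted p = 0.000972), and without Model 1 and Model 2 it passed the adjusted p (0.0149) at a fold just under 2. Vcam1, the ligand of alpha4beta1, measured 18.0, 14.5 and 14.1 CPM in Ctrl, 16.5, 18.9 and 28.9 in Ctrl_Swim, 32.7, 41.3 and 41.7 in Model and 27.2, 34.1 and 34.5 in Model_Swim. Only Ctrl_Swim 4 among the untreated libraries reached the AOM/DSS range, and it exceeded Model_Swim 1 alone. The log2 fold change in Model against Ctrl was 1.31 ± 0.20 (adjusted p = 0.0013).

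The 6 genes past both thresholds in Model against Ctrl became 5 to 7 with 1 library left out. Without Model 1 and Model 3, which held acinar transcripts, or Model 1 and Model 2, which held squamous transcripts, 1 Model library was left. Over all genes, the 1150 past both thresholds in either direction became 718 without Ctrl 2 and 1679 without Model 3, so that the shares of all genes shift with the libraries too. The median log2 fold change of the 10 genes was 1.03 without Model 1 and Model 3 and 0.98 without Model 1 and Model 2. Itgam crossed a fold of 2 without Ctrl 2 (1.07 on the log2 scale) and Itgax without Ctrl 1 (1.05).

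Per length, in the deposited FPKM values, which scale reads to the length of a gene and the size of a library, Itgb2 had the highest level in Ctrl, 5.63 ± 0.267 (SD, n = 3), followed by Icam1 at 5.10 ± 0.822, Vcam1 at 4.31 ± 0.556, Itgax at 3.34 ± 0.555 and Itgam at 2.76 ± 0.513. Itgal (2.33 ± 0.328), Itgb7 (2.16 ± 0.236), Itga4 (2.07 ± 0.276) and Madcam1 (2.04 ± 0.0929) followed closely and Itgae was lowest at 1.66 ± 0.221. The libraries of neighbours in this order overlapped, except that every Madcam1 value was above every Itgae value. In Model the same 3 genes led, Itgb2 at 13.8 ± 1.38, Icam1 at 12.9 ± 2.05 and Vcam1 at 11.6 ± 1.58, with no library of theirs as low as Itgal, next at 6.83 ± 0.918. Itgae was at 2.14 ± 0.132 and lay below Itgb7, at 3.91 ± 0.636, in every Model library.

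In swimming mice the estimates after AOM/DSS were smaller, a difference taken up below with the interaction. In Model_Swim against Ctrl_Swim 0 of 10 genes passed both thresholds by edgeR and by DESeq2, while 1.00% of all genes did by edgeR. That share, 155 genes by edgeR, ran from 46 genes without Model_Swim 3 to 274 without Model 3. By edgeR's adjusted p alone Icam1 (log2 fold change 0.72 ± 0.17, adjusted p = 0.0398) and Itgam (0.62 ± 0.16, adjusted p = 0.0459) passed, where 3.49% of all genes passed in the higher direction, and 5 genes had an unadjusted p under 0.05, against 22.4%. The groups did not overlap for Icam1, Itgam and Itgax, against 15.9% of all genes in this direction. Itgb2 (0.58), Vcam1 (0.57), Itgax (0.50), Itga4 (0.37), Itgb7 (0.29), Madcam1 (0.26) and Itgal (0.24) had positive values that did not pass, and Itgae had -0.15. Both calls were close to the threshold. Leaving out any 1 Ctrl library, which is no part of the comparison, left Icam1 at 0.71 and Itgam at 0.61 with adjusted p of 0.0511 to 0.0753, and 0 of 10 passed. None passed without any 1 Model_Swim library, Ctrl_Swim 2 or Ctrl_Swim 3 either, 1 passed without Model 2, and 3 passed without Ctrl_Swim 4. The median log2 fold change of the 10 genes, 0.43, was 0.69 without Ctrl_Swim 4 and 0.23 without Ctrl_Swim 2.

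Averaged over untrained and swimming mice, the AOM/DSS difference had an adjusted p under 0.05 for 8 of 10 genes, all higher, against 17.0% of all genes, and 0 of 10 were past a fold of 2 as well, where 4.29% of all genes were. The log2 values ran from 0.66 ± 0.18 for Madcam1 to 0.97 ± 0.12 for Icam1 among the 8. Itgb7 had 0.52 ± 0.19 (adjusted p = 0.0566) and Itgae 0.05 ± 0.11 (adjusted p = 0.782). All 6 AOM/DSS libraries were above all 6 others for Itgam, Itgax and Icam1, 3 of 10, against 5.97% of all genes. Without Ctrl_Swim 4, 4 genes passed both thresholds and 9 the adjusted p, DESeq2 passed 9 by the adjusted p, and Madcam1 did not pass without Model 1 and Model 2 (adjusted p = 0.0897).

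**Figure D2:**
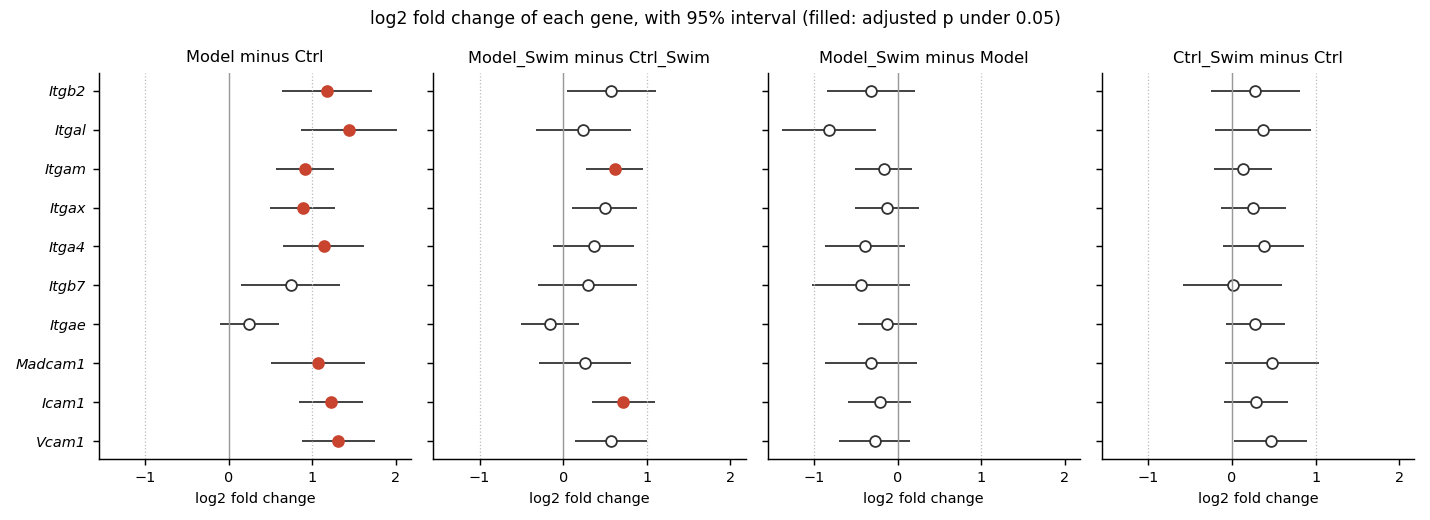
log2 fold change (horizontal axis) of the 10 genes in 4 comparisons by edgeR, as points with 95% intervals; filled points have an adjusted p under 0.05 and dotted lines mark a fold of 2. Points are filled for 8 genes in Model minus Ctrl and for 2 in Model_Swim minus Ctrl_Swim, and all 10 lie below 0 in Model_Swim minus Model.

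Swimming itself was compared within each treatment. In Model_Swim against Model all 10 genes had a lower estimate, with a median log2 fold change of -0.30 against -0.01 over all genes, but 0 of 10 passed the adjusted p by edgeR or DESeq2, where 0.0710% of all genes passed it, with or without the fold. That share is 11 genes by edgeR and rests on Model 3, since 327 genes passed both thresholds without it, and DESeq2 passed 115. Itgal had the largest value, -0.82 with a 95% interval of -1.38 to -0.26 and an adjusted p of 0.231, and was the only gene with an unadjusted p under 0.05, against 13.6% of all genes, and the only one without overlap, against 8.57% in the lower direction. The intervals of the other 9 genes held 0. Their lower ends ran from -0.47 for Itgae to -1.03 for Itgb7, so that for Itgb7 a fold of 0.5 was within the interval. Without Model 1 and Model 2, Icam1 had 0.02 in place of -0.22.

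In Ctrl_Swim against Ctrl all 10 estimates were positive, from 0.01 for Itgb7 to 0.48 for Madcam1. None of the 10 passed the adjusted p by edgeR or DESeq2, while by edgeR 0.969% of all genes passed it and 0.168% both thresholds. The latter share, 26 genes by edgeR, fell to 0 without Ctrl 1, Ctrl 3 or Ctrl_Swim 3 and was 38 at most, without Model 1. Vcam1 alone had an unadjusted p under 0.05, against 17.6% of all genes (0.46, 95% interval 0.03 to 0.90, adjusted p = 0.262), and no gene separated the groups, where 27.4% of all genes did. These positive values rested in part on Ctrl_Swim 4, the highest of the 6 untreated libraries for each of the 10 genes. Without it the estimates ran from -0.42 for Itgb7 to 0.23, 3 of them negative.

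The interaction, which asks whether the AOM/DSS difference was changed by swimming, was negative for all 10 genes, with values from -0.30 for Itgam to -1.20 for Itgal (95% interval -2.00 to -0.40, adjusted p = 0.14). By edgeR 0 of 10 genes and 0% of all genes passed, 4 of the 10 (Itgal, Itga4, Madcam1 and Vcam1) had an unadjusted p under 0.05, against 19.0% of all genes, and DESeq2 passed 1, Itgal. A difference between the untrained and swimming mice in their response to AOM/DSS is therefore not shown by edgeR for any of the 10 genes. Without Ctrl_Swim 4 the interaction ran from -0.80 to -0.03, with a lowest adjusted p of 0.248, and without Ctrl_Swim 2 from -1.46 to -0.42, with a lowest adjusted p of 0.0546. Over all genes, 248 passed both thresholds without Model 3 in place of 0, and DESeq2 passed 213.

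Several leukocyte lists were higher in the same libraries as the integrins, and others were not. The pan-leukocyte list summed to 116 to 142 CPM in Ctrl, 124 to 255 in Ctrl_Swim, 270 to 321 in Model and 181 to 226 in Model_Swim. All 4 of its genes were higher in Model than in Ctrl. Ptprc (CD45) was higher by 1.15 ± 0.24 on the log2 scale (adjusted p = 0.00567), a call lost without Model 1 and Model 3 (0.90, adjusted p = 0.0646). Of 9 T cell genes 5 were past both thresholds in Model against Ctrl, with Cd4 at 1.73 ± 0.26, of 8 B cell genes 7, of 7 neutrophil genes 5, with Csf3r at 2.05 ± 0.32, and of 9 macrophage genes 3, with Lyz2 at 1.35 ± 0.12, where 6.21% of all genes were higher by this rule. Of 5 plasma cell genes 0 passed the adjusted p in either direction, with a median of 0.11, and of 6 dendritic cell genes 1 passed it and 0 were past a fold of 2, with a median of 0.44. Among 7 genes of intraepithelial lymphocytes, Cd8a had the lowest p, at 0.85 ± 0.39 (adjusted p = 0.114). With 1 library left out its value ran from 0.53 to 1.08. Cd8a passed with a replicate block (adjusted p = 0.0323) and without Ctrl_Swim 4 (0.0469), which are overlapping fits because the block fits that library by itself. The B cell list summed to 141 to 161 CPM in Model and to 45.8 to 75.2 in Model_Swim, and Ctrl_Swim 4, at 144, was level with Model. The neutrophil list differed among the Model libraries, at 126, 87.3 and 21.1 CPM in Model 1 to 3. Of 6 stromal genes 5 were higher by the adjusted p, against 16.5% of all genes, and their sum was 360 to 388 CPM in Ctrl and 690 to 818 in Model. Of 8 colon epithelial genes 3 were lower by the adjusted p, against 16.2% of all genes, and their sum was 24768 to 28335 CPM in Ctrl and 11738, 15824 and 25000 in Model 1 to 3.

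**Figure D3:**
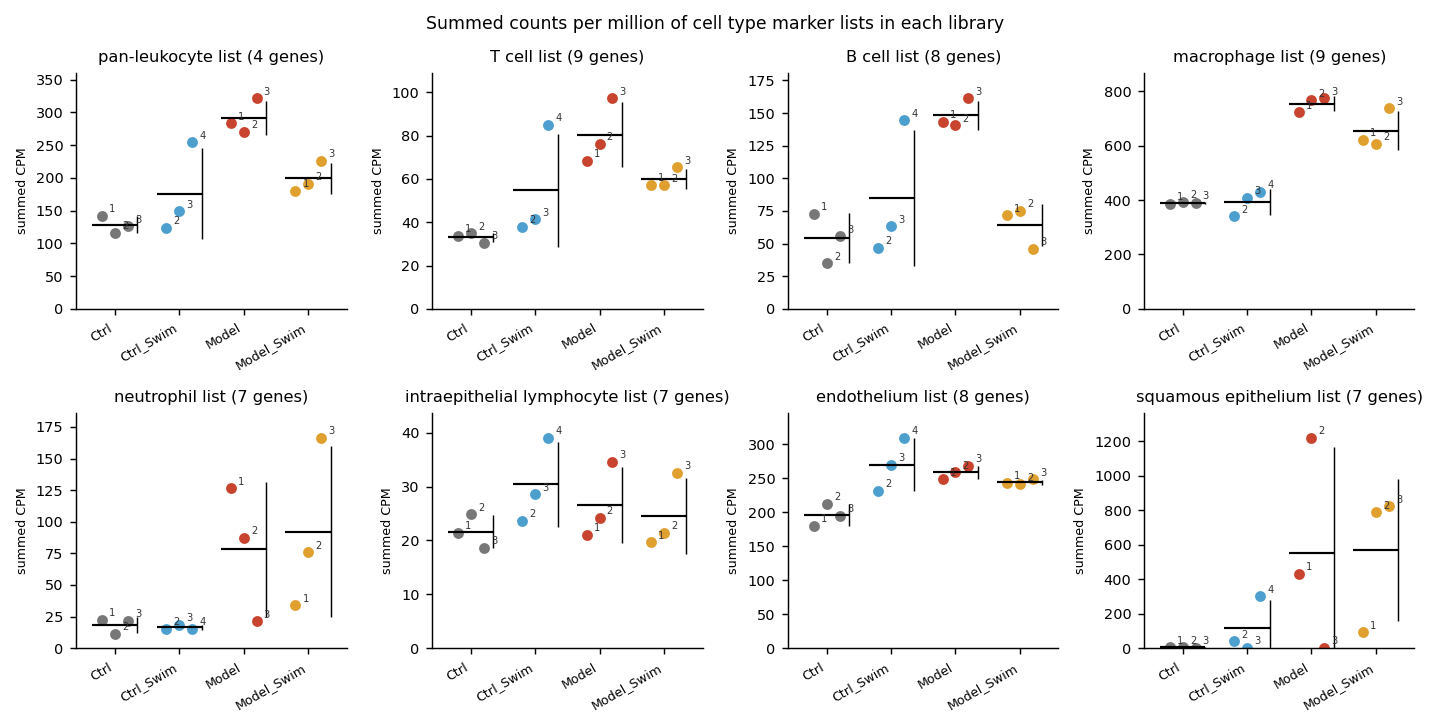
Summed TMM-scaled CPM of 8 lists of cell type markers in the 12 libraries, by group; points are libraries with their number, lines are means and ± 1 SD (n = 3), drawn down to 0 at most. Leukocyte, T cell, B cell and macrophage sums are higher in every Model library than in every Ctrl library, and Ctrl_Swim 4 stands above the other untreated libraries in the leukocyte, T cell and B cell panels.

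To see the integrins beside this content, each was tested again with the counts of the pan-leukocyte list as the library size. On that scale 0 of 7 subunits passed both thresholds in Model against Ctrl, where 65.7% of all genes did, since most genes of the tissue are not leukocyte genes and the median over all genes was -1.18. Itgb2 had -0.02 ± 0.22, Itga4 -0.06 ± 0.24, Itgal 0.26 ± 0.22, Itgam -0.28 ± 0.25 and Itgax -0.28 ± 0.25 on the log2 scale, with adjusted p from 0.287 to 0.951. Itgb7 had -0.44 ± 0.23 (adjusted p = 0.0867). Only Itgae passed the adjusted p, at -0.93 ± 0.26 (adjusted p = 0.00313), where 77.2% of all genes passed in this direction. Without Model 1 and Model 3 Itgae had -0.80 and did not pass (adjusted p = 0.119). Itgb7 passed with a replicate block (adjusted p = 0.0216) and without Ctrl_Swim 4 (0.0184), which are overlapping fits because the block fits that library by itself.

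Counted per 1000 counts of the pan-leukocyte list, Itgae stood at 71.6, 65.5 and 70.1 in Ctrl, 80.0, 69.6 and 47.5 in Ctrl_Swim, 34.8, 39.7 and 34.5 in Model and 47.8, 45.3 and 52.2 in Model_Swim. All Model libraries were below all Ctrl libraries, as they were for 81.6% of all genes on this scale, and Ctrl_Swim 4 was within the Model_Swim range. In Model_Swim against Ctrl_Swim Itgae had -0.44 ± 0.26 (adjusted p = 0.462). Itgb2 on the same scale ran from 121 to 148 in Ctrl and from 127 to 146 in Model, which overlapped, from 108 to 128 in Ctrl_Swim and from 155 to 166 in Model_Swim, the highest group. Its log2 value in Model_Swim against Ctrl_Swim was 0.41 ± 0.22 and did not pass (adjusted p = 0.453). Whether the mix of leukocyte types accounts for any of these values was not tested.

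The ligands were set against endothelial content in the same way, with the counts of 8 endothelial genes as the library size. The endothelial list summed to 180 to 212 CPM in Ctrl, 231 to 310 in Ctrl_Swim, 248 to 269 in Model and 241 to 248 in Model_Swim, and 2 of its genes, Pecam1 (0.53 ± 0.10, adjusted p = 0.00324) and Cdh5 (0.55 ± 0.13, adjusted p = 0.0101), passed the adjusted p in Model against Ctrl with none past a fold of 2, against 16.5% and 6.21% of all genes. Cdh5 did not pass without Model 1 and Model 3 (adjusted p = 0.0619). Per endothelial transcripts all 3 ligands were higher in Model than in Ctrl by the adjusted p alone, where 6.50% of all genes were, and 0 of 3 were past a fold of 2, where 9.38% of all genes were in either direction. The log2 values were 0.89 ± 0.17 for Vcam1 (adjusted p = 0.00203), 0.82 ± 0.16 for Icam1 (adjusted p = 0.00198) and 0.66 ± 0.24 for Madcam1 (adjusted p = 0.0345), against a median of -0.40 over all genes.

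Per 1000 endothelial counts, Icam1 stood at 79.5, 73.2 and 58.3 in Ctrl, 60.8, 55.8 and 68.5 in Ctrl_Swim, 129, 142 and 102 in Model and 104, 112 and 122 in Model_Swim. Vcam1 ran from 68.6 to 100.3 in Ctrl, 70.2 to 93.4 in Ctrl_Swim, 132 to 159 in Model and 112 to 141 in Model_Swim. For both, all 6 AOM/DSS libraries were above all 6 others, Ctrl_Swim 4 included, as for 2.12% of all genes on this scale. Madcam1 ran from 15.7 to 20.6 in Ctrl, 13.7 to 21.0 in Ctrl_Swim, 23.3 to 33.6 in Model and 18.5 to 28.2 in Model_Swim, so that the swimming groups overlapped.

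In Model_Swim against Ctrl_Swim, Icam1 (0.87 ± 0.16, adjusted p = 0.013) and Vcam1 (0.74 ± 0.17, adjusted p = 0.0392) passed on this scale. Of all genes 2.39% passed in the higher direction, and the median over all genes was 0.12. With TMM scaling Vcam1 had 0.57 and did not pass by edgeR (adjusted p = 0.114). Madcam1 (0.43 ± 0.24, adjusted p = 0.411) did not pass per endothelial transcripts. The Madcam1 value in Model against Ctrl was less firm than the other 2: with 1 library left out its adjusted p ran from 0.0251 to 0.116, and it did not pass without Ctrl 2, Ctrl 3, Model 1 or Model 2. With Pecam1 alone as the denominator it had 0.53 and did not pass (adjusted p = 0.0507). Without both Model 1 and Model 2 the Madcam1 log2 value was 0.38 (adjusted p = 0.388), and without Model 1 and Model 3 it was 0.63 (0.137). Averaged over untrained and swimming mice Madcam1 had 0.54 ± 0.17 (adjusted p = 0.0299). That call was lost without Model 1 and Model 3 (0.0655) and without Model 1 and Model 2 (0.173). It was also lost without Ctrl 2, Ctrl 3, Ctrl_Swim 2, Ctrl_Swim 3, Model 1, Model 2, Model_Swim 2 or Model_Swim 3 (0.0529 to 0.0817). In Model against Ctrl, Icam1 and Vcam1 passed in each fit that left out 1 library. Without both Model 1 and Model 2, Icam1 had 0.54 and did not pass (adjusted p = 0.0667), and Vcam1 had 0.95 and passed (adjusted p = 0.0194). Both genes are also made by leukocytes and stromal cells, and the cells that held them here were not measured. Per pan-leukocyte transcripts the ligands did not pass in Model against Ctrl, with 0.05 ± 0.25 for Icam1, 0.13 ± 0.23 for Vcam1 and -0.11 ± 0.30 for Madcam1 (adjusted p from 0.596 to 0.867). On that scale 77.2% of all genes passed as lower, with a median of -1.18 over all genes. In Model against Ctrl the ligands thus passed the adjusted p per endothelial transcripts, Madcam1 less firmly, and did not pass it per leukocyte transcripts. Values that did not pass do not show equal levels. In Model_Swim against Ctrl_Swim, per leukocyte transcripts, Icam1 had 0.49 ± 0.25, Vcam1 0.37 ± 0.23 and Madcam1 0.05 ± 0.30. None of these passed (edgeR adjusted p from 0.451 to 0.923).

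**Figure D4:**
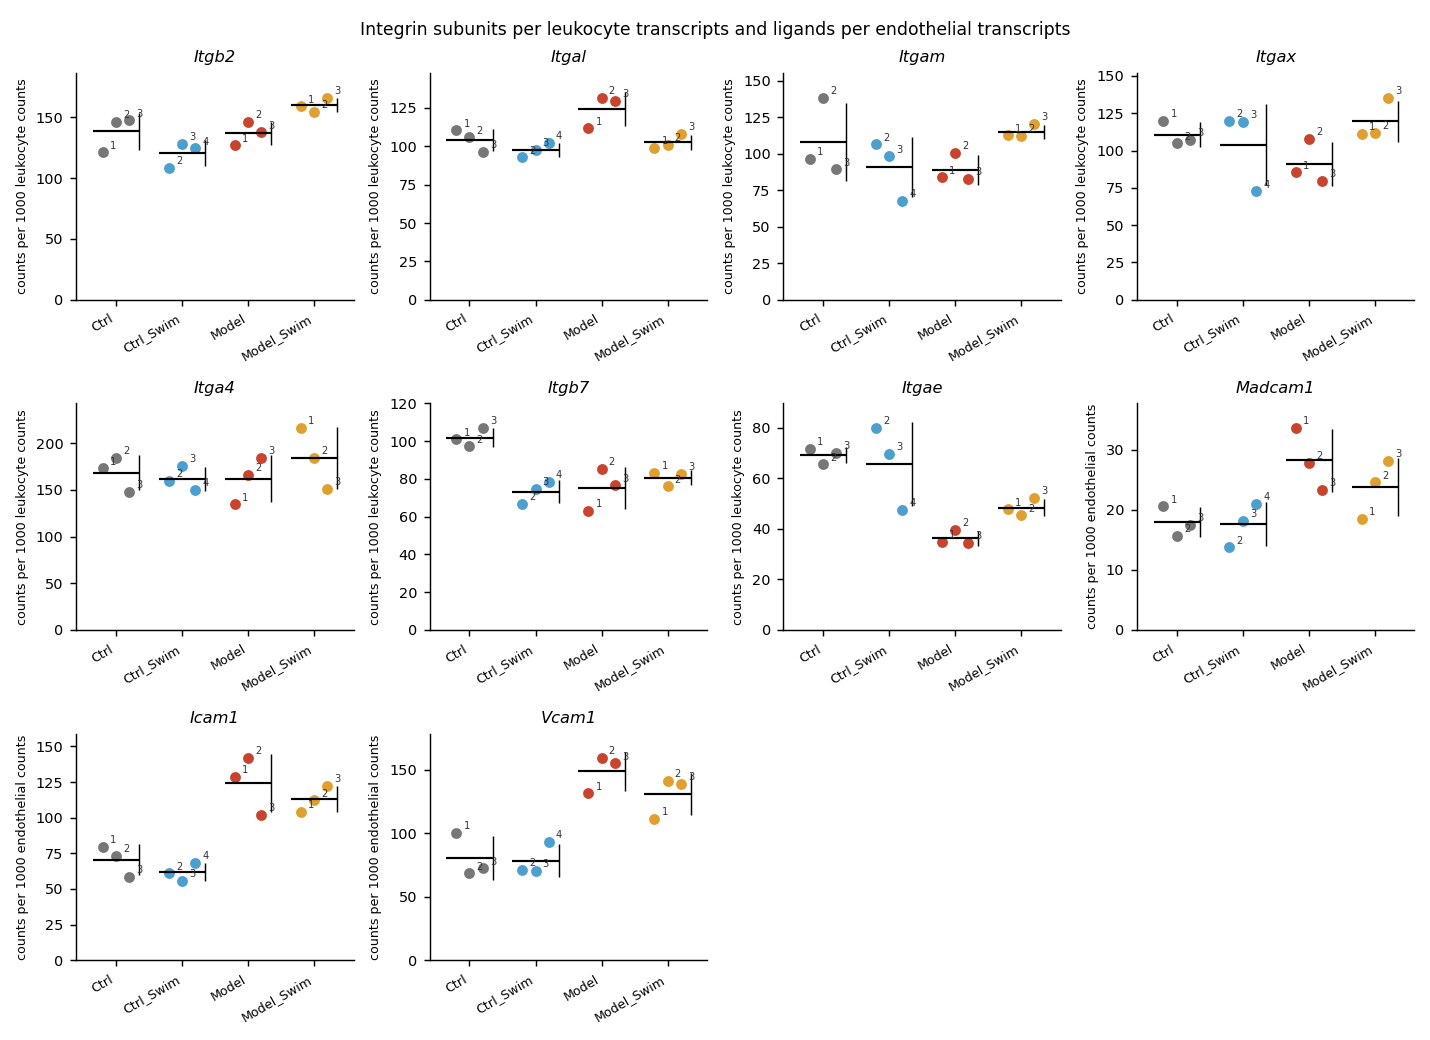
Counts of the 7 integrin subunits per 1000 counts of the pan-leukocyte list and of the 3 ligands per 1000 counts of the endothelial list, by library and group; points are libraries with their number, lines are means and ± 1 SD (n = 3). Itgae is lower in all Model than in all Ctrl libraries, and Icam1 and Vcam1 are higher in all 6 AOM/DSS libraries than in the 6 others.

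The balance between subunits, taken as ratios of FPKM within a library, is a description without a test. Itgal to Itgb2 was 0.479, 0.490 and 0.513 in Model and 0.339, 0.354 and 0.353 in Model_Swim. Ctrl, at 0.495, 0.394 and 0.354, reached into both ranges, and Ctrl_Swim, at 0.466, 0.413 and 0.447, lay between them. Itgam to Itgb2 ran from 0.379 to 0.434 in Model and from 0.446 to 0.457 in Model_Swim, and Ctrl spread more widely, from 0.381 to 0.597. Itgax to Itgb2 overlapped between Model, at 0.424 to 0.541, and Model_Swim, at 0.514 to 0.597, and none of the 3 alpha chains passed the adjusted p in Model_Swim against Model.

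Itgae to Itgb7 was 0.802, 0.762 and 0.741 in Ctrl, 1.36, 1.06 and 0.684 in Ctrl_Swim, 0.624, 0.526 and 0.509 in Model and 0.649, 0.674 and 0.715 in Model_Swim. Model was the lowest group, below every other library. Itgae to Itgal ran from 0.666 to 0.783 in Ctrl and from 0.286 to 0.335 in Model, with Model_Swim between them at 0.483 to 0.520 and Ctrl_Swim at 0.927, 0.768 and 0.50, so that Ctrl_Swim 4 was within the Model_Swim range. Itga4 to Itgb7 ran from 0.802 to 1.10 in Ctrl and from 1.13 to 1.40 in Model, and the swimming groups, at 1.11 to 1.39 in Ctrl_Swim and 1.06 to 1.51 in Model_Swim, overlapped Model.

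**Figure D5:**
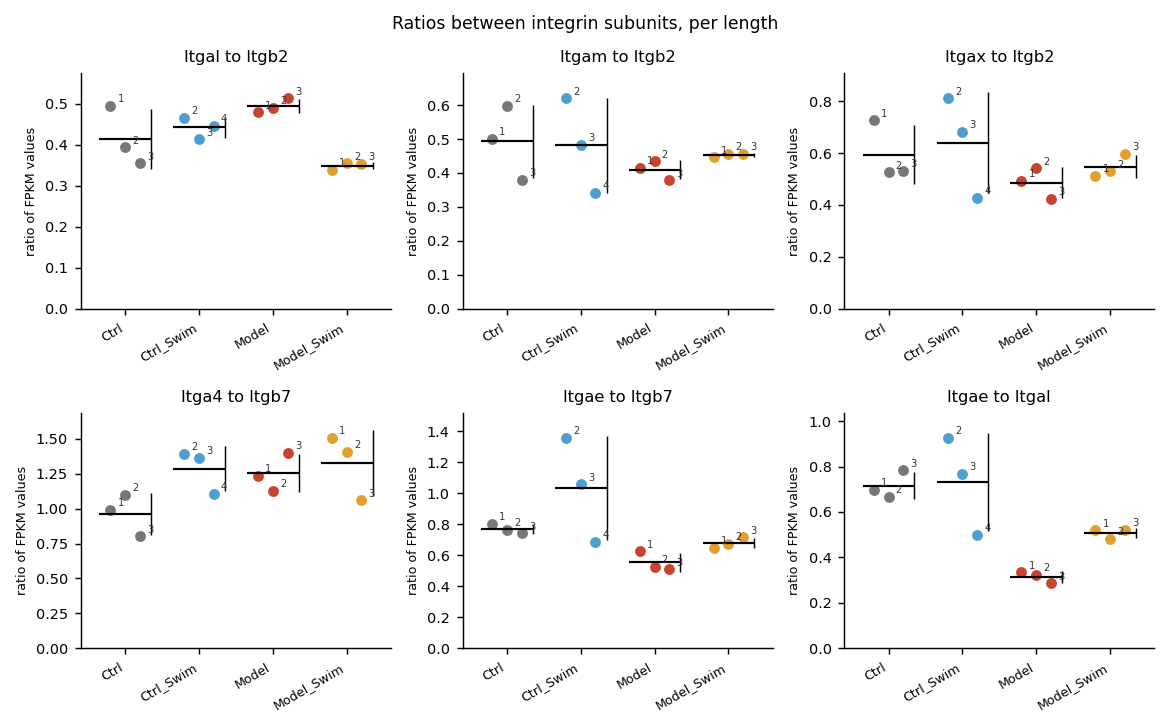
Ratios of FPKM between pairs of integrin subunits in the 12 libraries, by group; points are libraries with their number, lines are means and ± 1 SD (n = 3). Itgal to Itgb2 is higher in all Model than in all Model_Swim libraries, and Itgae to Itgb7 is lowest in Model.

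Other genes of leukocyte adhesion were taken from lists written from general knowledge. The lists share genes, so their counts are not separate. Pecam1 and Cdh5, among the further ligands, are also in the endothelial list. Cxcr5 is also in the B cell list, and Ccl19, Ccl21a and Cxcl13 are in the homing and stromal lists. Cd8a is in the T cell and intraepithelial lymphocyte lists. Of 19 other integrin subunits tested, 8 were higher in Model than in Ctrl by the adjusted p, 2 of them past a fold of 2, against 16.5% and 6.21% of all genes, and 0 were lower, with a median of 0.38 on the log2 scale. Itgav (0.84 ± 0.09, adjusted p = 0.000407) and its epithelial partner Itgb6 (0.65 ± 0.17, adjusted p = 0.0139) were among them, though Itgb6 did not pass without Model 1 and Model 3 (adjusted p = 0.0901) or without Model 1 and Model 2 (0.11). Of 12 further ligands 4 were higher by the adjusted p, against 16.5% of all genes, including Cd47 (0.64 ± 0.10), which associates with alphavbeta3, and Fn1 (0.69 ± 0.18), the fibronectin bound by alpha4beta1, and none was past a fold of 2. Fn1 did not pass without Ctrl 2 (adjusted p = 0.0672), Ctrl 3 (0.0551) or Model 2 (0.0567) or with only Ctrl and Model in the fit (0.063), and without Model 1 and Model 2 it had 0.18 (0.507).

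Among 13 selectins, selectin ligands and the enzymes that build them, 5 were higher and 1 lower past both thresholds, against 6.21% and 1.22% of all genes. Selp, the P-selectin of activated endothelium and platelets, was higher by 1.92 ± 0.27 (adjusted p = 0.000974). Sele, the endothelial E-selectin, had 6, 1 and 0 counts in Ctrl 1 to 3 and 59, 24 and 17 counts in Model 1 to 3, a mean of 1.81 ± 1.18 CPM in Model (SD, n = 3; edgeR adjusted p = 0.00613, and 0.0662 without Model 1 and Model 2). The sialyltransferase gene St3gal4 was lower, at -1.01 ± 0.19 (adjusted p = 0.00335). Its fold was close to 2, running from -1.14 to -0.77 on the log2 scale with 1 library left out, and under 2 without Ctrl 1, Ctrl 3, Model 1 or any 1 swimming library, without either pair of Model libraries and by limma, while the adjusted p passed in all of these. In the same list the sulfotransferase gene Chst4 had -0.74 ± 0.13 (adjusted p = 0.00208). Their means were lower in untreated swimming mice as well. St3gal4 averaged 498 CPM in Ctrl, 249 in Ctrl_Swim and 248 in Model (Ctrl_Swim against Ctrl, -0.998 ± 0.19, adjusted p = 0.0421). Chst4 averaged 90.5, 63.8 and 54.1 CPM (-0.51 ± 0.13, adjusted p = 0.09, which did not pass). Of 14 genes whose proteins switch integrins on, 8 were higher by the adjusted p and 3 past a fold of 2, against 16.5% and 6.21% of all genes, among them Rasgrp1 (1.48 ± 0.31), a Ras activator of lymphocytes, and Rassf5 (1.25 ± 0.27), a partner of Rap1 that acts on LFA-1. By limma on log2(FPKM + 1), with and without its filter, Rasgrp1 had 0.87, a fold under 2, though the adjusted p passed. Tln1, talin, which binds the beta tails, had 0.26 ± 0.06 (adjusted p = 0.0115).

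Of 11 genes of gut homing and lymphoid recruitment, 2 were higher past both thresholds, against 6.21% of all genes, including Cxcr5, the follicular homing receptor (1.53 ± 0.37, adjusted p = 0.011), and 1 was lower, against 1.22%, namely Ccl25, the chemokine of the small bowel that draws alpha4beta7 cells (-1.70 ± 0.45, adjusted p = 0.0158). Without Model 1 and Model 3 neither Cxcr5 (adjusted p = 0.054) nor Ccl25 (0.0887) passed. Ccl25 also did not pass without Ctrl 2 (0.0553) or Ctrl 3 (0.0663), by limma with no filter (0.0527), or without Model 1 and Model 2 (-1.30, 0.174).

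The genes whose pattern over the 12 libraries was most like that of a member were sought among 13994 genes by the root mean square distance between centred log2 CPM values. For Itgb2 they were Pld4 (0.078), Laptm5 (0.122) and Rassf5 (0.129), against a median distance of 0.60 to all genes. For Vcam1, with a median that also rounds to 0.60, they were Csf2rb (0.087), Tyrobp (0.128) and Gpr132 (0.146), and for Madcam1, with a median of 0.513, Rgs19 (0.143), Gbp9 (0.147) and Sh3bp1 (0.153). Itgae, which varied little (SD 0.189 on the log2 scale), was nearest to Cirbp (0.091), Tbce (0.110) and Spata7 (0.111), against a lower median of 0.285. Within the 10 genes the closest pairs were Icam1 with Itgam (0.165) and Itgb2 with Vcam1 (0.179), and Itgae lay at 0.328 to 0.521 from the others. These distances share the libraries and their make-up and are given as a description.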

How the data were processed

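RNA sequencing of colorectal tissue gave 12 libraries. Per the methods, the authors used Trimmomatic for trimming and HISAT2 for alignment, with GRCm38.p6 as the genome. They deposited raw counts per gene from HTSeq-count, as integers that had not been normalized. They also deposited FPKM values from Cufflinks. Tool versions and the annotation release are not given in the sources used here. Totals per library were 17257000 to 19451100 counts.

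From the counts, edgeR 4.0.16 in R 4.3.3 was used with TMM scaling, filterByExpr (minimum count 10), a quasi-likelihood fit of all 4 groups and Benjamini-Hochberg adjustment over 15484 genes in each comparison. A gene passed both thresholds with an adjusted p under 0.05 and more than a 2-fold change. Errors of log2 fold changes are standard errors, and intervals are 95% intervals from the fit. Distances used log2 CPM with a prior count of 2 and genes of at least 1 CPM on average. Alternatives were DESeq2 1.42.0 (the study's tool), DESeq2 size factors, no filter, only the groups compared, a replicate block, the adjusted p alone, limma 3.58.1 on log2(FPKM + 1) or log2(FPKM + 0.1), and leaving out libraries. The fit was tested on simulated data. No 2 libraries of a group agreed within sampling noise.

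The 10 genes and all gene lists were chosen with earlier results of these data known. All 10 were described in full. From other lists, up to 4 genes with the lowest p in Model against Ctrl and the most abundant gene could be named. Leaving out Model 1 and Model 2 together was added after the values were seen. Itgb2l, Fut7, Icam4 and Icam5 were too low to test.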

Additional observations from a re-analysis of the deposited data

How the results depend on the processing

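With 3 libraries per group and shared controls, p-values are limited by few libraries. Of 1300 log2 fold changes of the 10 genes recomputed with other fits or libraries, 11 changed direction and 45 crossed the adjusted p threshold, 26 of them losing it and 19 gaining it. In Model against Ctrl 0 of 220 changed direction. The count of 6 in Model against Ctrl was 4 with limma on log2(FPKM + 1), with and without its filter, 7 on log2(FPKM + 0.1), and 5 to 7 with 1 library left out. Under the adjusted p alone, 2 genes passed in Model_Swim against Ctrl_Swim, 8 in the average over swimming, 1 per leukocyte transcripts in both comparisons and 3 per endothelial transcripts in both. The averaged Madcam1 value per endothelial transcripts did not pass in several fits, as given above. In the average over swimming 1 gene passed both thresholds with limma on log2(FPKM + 0.1), 1 without Model 1 and Model 3, and 0 to 4 with 1 library left out. DESeq2 passed 1 gene in the interaction. Per leukocyte transcripts 1 gene passed in Model against Ctrl without Model 1 and Model 2, and per endothelial transcripts 1 passed without Model 1 and Model 3 and 0 to 1 with 1 library left out.

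A pairing of samples by library number was not shown. Same-numbered libraries of different groups had correlations of their deviations from -0.26 to 0.56, with 4 of 15 over 0.1. Libraries of other numbers and groups had -0.56 to 0.45, with 13 of 39 over 0.1. These values cannot exclude a pairing. A replicate block fits Ctrl_Swim 4, the only library of that number, by itself, and so overlaps with leaving it out. With the block 1 gene passed in Model_Swim against Ctrl_Swim and 4 in the average over swimming. The block turned the Ctrl_Swim against Ctrl values of Itgb2, Itgal, Itgam and Itgb7 to -0.19, -0.079, -0.029 and -0.48, the interaction of Itgb7 to 0.035, and the Itgam value per leukocyte transcripts, averaged over swimming, to -0.024.

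Other reversals were as follows. With 1 library left out, Ctrl_Swim against Ctrl ran from -0.42 to 0.28 for Itgb7, -0.11 to 0.55 for Itgb2 and -0.031 to 0.62 for Itgal, and the average over swimming from -0.033 to 0.11 for Itgae. Per leukocyte transcripts the ranges in Model against Ctrl were -0.10 to 0.036 for Itgb2 and -0.16 to 0.058 for Itga4, and averaged over swimming -0.054 to 0.14 for Itgam, -0.14 to 0.019 for Itgax and -0.0032 to 0.13 for Itga4. With Ptprc alone as the denominator Itgb2 had 0.027 and, averaged, Itgax 0.042. Without Model 1 and Model 3 these were 0.079 and 0.085. Without Model 1 and Model 2 Itga4 had 0.13, Itgam had -0.019 averaged, and Icam1 had 0.016 in Model_Swim against Model. The causes were not tested. Counts of 3 are 0.153 to 0.172 CPM, far below every value of the 10 genes.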
